A study of Rattus norvegicus with 22 samples.

Results

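The annexins are a family of calcium-dependent, phospholipid-binding proteins, and 8 of them were examined here in rat hippocampus after traumatic brain injury (TBI): Anxa1, Anxa2, Anxa3, Anxa4, Anxa5, Anxa6, Anxa7 and Anxa11. They were listed by gene family, and this list and the gene lists below were chosen with earlier results of these data known. They make up 8 of the 17172 genes in the count table, and all 8 are among the 12875 genes with enough reads to be tested. Anxa8, also tested, was not on the list and is given separately. The study asked how hippocampal transcription changes acutely and subacutely after a moderate lateral fluid percussion injury, a model in which a brief fluid pulse strikes the exposed dura. Adult male Sprague-Dawley rats had a craniectomy over the right parasagittal cortex under isoflurane. TBI rats then received the pulse, and sham rats had the same anesthesia and surgery without it. RNA-seq was made from the whole hippocampus on the injured side, with 1 library per rat. At day 1 there were 2 libraries from sham and 4 from TBI rats, and day 14 had 4 of each kind. The sham rats therefore carry the effects of craniectomy and anesthesia as well, and no rat without surgery was analysed here.

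Each annexin holds a conserved core that docks onto negatively charged membrane lipids when calcium rises, and a variable N-terminal stretch that sets its partners. Several bind small S100 proteins. In brain, annexins are best known for the resolution of inflammation (Anxa1), plasminogen activation at the cell surface (Anxa2), marking of exposed phosphatidylserine (Anxa5), membrane repair and vesicle traffic. They are made by glia, vessels, meninges, infiltrating leukocytes and, for some members, neurons. In bulk tissue, a change in the number of cells of a type and a change in the RNA of each cell cannot be told apart.

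The promoters of Anxa1 and Anxa2 are shown because these members had the largest changes of the family at day 1. Each sequence is the 250 bases before the transcription start in RefSeq (GRCr8 assembly), at chr1:227303733-227303982 on the minus strand for Anxa1 and chr8:78986002-78986251 on the plus strand for Anxa2. Capitals mark matches to the AP-1 motif TGANTCA or to the TATA box TATAAA, read 5′ to 3′.
Anxa1: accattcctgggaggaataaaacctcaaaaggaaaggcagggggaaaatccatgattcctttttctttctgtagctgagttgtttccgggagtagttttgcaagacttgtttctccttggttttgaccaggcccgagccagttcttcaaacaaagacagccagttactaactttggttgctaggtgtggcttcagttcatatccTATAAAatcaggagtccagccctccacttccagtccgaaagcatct
Anxa2: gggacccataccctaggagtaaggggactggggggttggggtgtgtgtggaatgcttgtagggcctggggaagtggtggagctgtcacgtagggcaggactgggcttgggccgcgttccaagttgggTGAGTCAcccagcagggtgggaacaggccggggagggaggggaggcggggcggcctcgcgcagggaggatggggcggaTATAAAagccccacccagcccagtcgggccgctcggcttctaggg
Positions are counted back from the start site. Anxa1 holds a TATA box at -46 and Anxa2 at -45, and Anxa2 also holds an AP-1 match at -123 and GC boxes (GGGCGG) at -76 and -52. Of 33469 rat promoters of the same length, 12.9% hold the TATA letters on either strand, 6.34% the AP-1 letters and 30.5% the GC box. No STAT motif (TTCNNNGAA, held by 7.67%) was found in the 7 members with an entry, which leaves out Anxa6. Anxa3 holds 3 GC boxes, Anxa11 holds 4, Anxa4 and Anxa5 hold 1 each, and Anxa7 holds none of the 4 motifs. These are matches of letters, and no binding was measured at them here.

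The libraries held between 15065540 and 23743703 counts, and levels are given as CPM, a gene's counts scaled to a common library size after TMM correction for library composition. Across 12 choroid plexus markers, the summed level was 8927 CPM in sham day 1 replicate 1, 7664 CPM in TBI day 14 replicate 3 and 1565 CPM in TBI day 14 replicate 2. It was between 7.33 and 29.5 CPM in the other libraries, and Otx2, a defining marker of this epithelium, was at 0 counts in every library. Because sham day 1 has only 2 rats and they differ in this way, the day 1 result of each annexin is given below with either one left out, and for the partner list the counts. Such a fit assumes that the remaining sham rat varies like the other groups.

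At day 1, 6 of the 8 annexins were higher after TBI than in sham (Anxa1, Anxa2, Anxa3, Anxa4, Anxa5 and Anxa7; edgeR quasi-likelihood test, adjusted p below 0.05 over all tested genes), and none was called lower. Of all tested genes, 11.2% were called higher and 7.93% lower in the same comparison. The median log2 fold change of the 8 members was 0.79, beside -0.02 for all tested genes. At day 14, 3 of the 8 (Anxa1, Anxa2 and Anxa3) were higher after TBI and none was called lower, where 4.07% of all tested genes were called higher and 0.365% lower. The member median was then 0.23, beside -0.03 for all tested genes. The day 14 count was 2, without Anxa2, with limma-voom and with any single rat of day 14 left out. It was 3 with DESeq2 and with only the day 14 groups in the fit. With sham day 1 replicate 1 left out the day 1 count was 5, without replicate 2 it was 3 (Anxa1, Anxa2 and Anxa4), and with only the day 1 samples in the fit it was also 3, the same genes.

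**Figure D1:**
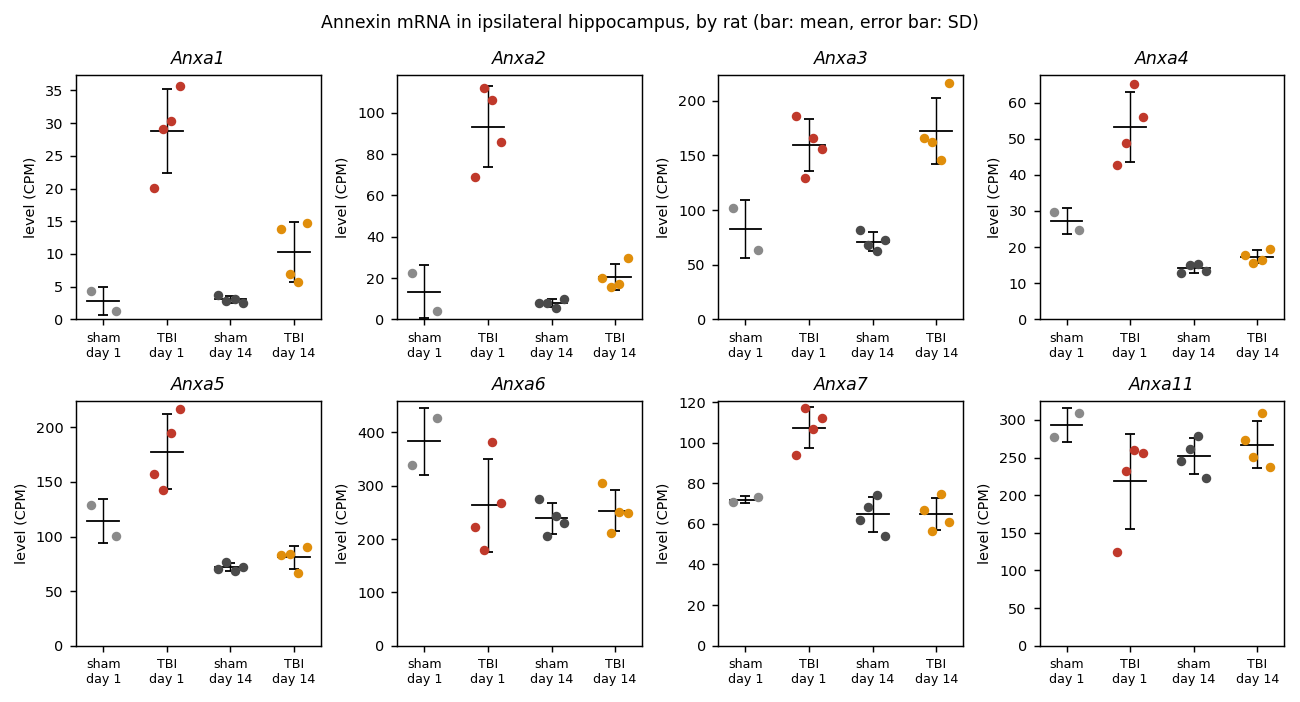
Level of each annexin in CPM (vertical axis, from 0) by group, with 1 point per rat, a horizontal bar at the group mean and an error bar of 1 SD. All 4 TBI day 1 rats lie above both sham day 1 rats for Anxa1, Anxa2, Anxa3, Anxa4, Anxa5 and Anxa7, and 1 TBI day 1 rat lies far below the rest for Anxa11.

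Anxa1 encodes a glucocorticoid-induced protein that binds formyl peptide receptors and restrains leukocyte recruitment. Its level was 4.37 and 1.25 CPM in the 2 sham rats of day 1 and 20.1, 29.1, 30.3 and 35.7 CPM in the 4 TBI rats. Every TBI rat was thus above both sham rats, which rested on 81 and 27 counts. Anxa1 rose 10.4-fold at day 1 (log2 fold change 3.37, SE 0.51, edgeR adjusted p = 0.000402). The log2 value was 4.53 without sham replicate 1 (adjusted p = 0.000339) and 2.72 without sham replicate 2 (adjusted p = 0.00777, edgeR), so the size of the rise, unlike its call, depended on which sham rat was used. At day 14, Anxa1 was at 3.80, 2.88, 3.14 and 2.45 CPM in sham rats and at 13.8, 6.97, 5.71 and 14.7 CPM in TBI rats. The groups did not overlap, and TBI replicates 2 and 3, the libraries rich in choroid plexus markers, were the lower ones. The day 14 rise was 3.36-fold (log2 fold change 1.75, SE 0.37, edgeR adjusted p = 0.00957). Without TBI day 14 replicates 2 and 3, it was 2.24 on the log2 scale. Between the TBI groups, Anxa1 was 2.80-fold lower at day 14 than at day 1 (log2 fold change -1.49, SE 0.34, edgeR adjusted p = 0.00356), and this call was lost without the same 2 rats (log2 fold change -0.98, edgeR adjusted p = 0.0579). The order of levels was therefore TBI day 1, TBI day 14 and then the sham groups, which did not pass the test against each other (log2 fold change -0.14, edgeR adjusted p = 0.865).

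Anxa2 encodes the membrane partner of S100a10 and, with it, a cell surface co-receptor for plasminogen and tissue plasminogen activator. Its level was 22.6 and 4.24 CPM in the sham rats of day 1 and 69.0, 112, 105.9 and 86.0 CPM in the TBI rats. The groups did not overlap, but sham replicate 1 was several times as high as sham replicate 2. Anxa2 rose 6.99-fold (log2 fold change 2.80, SE 0.51, edgeR adjusted p = 0.00167), with 4.46 on the log2 scale without sham replicate 1 and 2.05 without replicate 2, called each time. At day 14, the sham rats held 8.13, 7.75, 5.57 and 9.96 CPM and the TBI rats 19.8, 15.6, 17.3 and 29.7 CPM. No TBI rat was as low as any sham rat, and replicate 4 was the highest. The day 14 rise of 2.63-fold was close to the threshold (log2 fold change 1.39, SE 0.38, edgeR adjusted p = 0.0494). It was called in 9 of 24 alternatives, with log2 fold changes from 1.16 to 1.68 and adjusted p from 0.00119 to 0.188. Leaving out any single rat of day 14, or TBI day 1 replicate 2, 3 or 4, lost the call, with the lowest value (log2 fold change 1.16, edgeR adjusted p = 0.188) without TBI day 14 replicate 4. With only the day 14 groups in the fit, the rise was called (log2 fold change 1.43, edgeR adjusted p = 0.00164). From day 1 to day 14 after TBI, Anxa2 was 4.52-fold lower (log2 fold change -2.18, SE 0.37, edgeR adjusted p = 0.000397).

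Anxa3 encodes a member found in microglia and neutrophils. It was at 101.5 and 63.8 CPM in the sham rats of day 1 and at 186.4, 129.4, 165.9 and 156.3 CPM in the TBI rats. All TBI rats were above both sham rats. The rise was 1.93-fold (log2 fold change 0.95, SE 0.21, edgeR adjusted p = 0.00689), and it was called without sham replicate 1 (log2 fold change 1.32, edgeR adjusted p = 0.003) but not without sham replicate 2 (log2 fold change 0.65, edgeR adjusted p = 0.126). At day 14, sham rats held 82.3, 67.7, 62.2 and 72.5 CPM and TBI rats 165.9, 162.7, 145.9 and 216.1 CPM. The lowest TBI rat was well above the highest sham rat. The day 14 rise was 2.43-fold (log2 fold change 1.28, SE 0.17, edgeR adjusted p = 0.000264), and it was called in 24 of 24 alternatives (log2 fold changes 1.15 to 1.45). Between the TBI groups the difference did not pass the test (log2 fold change 0.12, 95% interval -0.24 to 0.47, edgeR adjusted p = 0.615).

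Anxa4, a phospholipid-binding member best known from epithelia, was at 29.7 and 24.7 CPM in sham rats of day 1 and at 42.6, 48.7, 65.1 and 56.1 CPM in TBI rats. The groups did not overlap. The rise was 1.95-fold (log2 fold change 0.97, SE 0.18, edgeR adjusted p = 0.00198) and held its call with either sham rat left out (1.10 and 0.84 on the log2 scale). At day 14, Anxa4 was at 12.9, 15.1, 15.4 and 13.3 CPM in sham rats and at 17.8, 15.5, 16.5 and 19.5 CPM in TBI rats. These groups also did not overlap, by a narrow margin, and the difference did not pass the test (log2 fold change 0.29, 95% interval -0.02 to 0.60, edgeR adjusted p = 0.425). Anxa4 also differed between the sham groups. It was higher in sham rats at day 1 than at day 14 (log2 fold change 0.94, SE 0.17, edgeR adjusted p = 0.00342), close in size to the difference between TBI and sham at day 1.

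Anxa5 encodes the phosphatidylserine-binding protein used as a label of dying cells. Its level was 128.6 and 100.2 CPM in sham rats of day 1 and 157.1, 142.5, 194.9 and 216.8 CPM in TBI rats. The groups were separate, and the rise was 1.56-fold (log2 fold change 0.64, SE 0.18, edgeR adjusted p = 0.0238). It was called without sham replicate 1 (log2 fold change 0.83, edgeR adjusted p = 0.0215) but not without sham replicate 2 (log2 fold change 0.47, edgeR adjusted p = 0.256). At day 14, the sham rats held 70.4, 76.9, 68.5 and 71.8 CPM and the TBI rats 83.3, 84.2, 66.3 and 90.7 CPM. The groups overlapped through TBI replicate 3, and the difference did not pass the test (log2 fold change 0.17, edgeR adjusted p = 0.745). Like Anxa4, Anxa5 was higher in sham rats at day 1 than at day 14 (log2 fold change 0.67, SE 0.17, edgeR adjusted p = 0.0168), but not without sham day 1 replicate 1 (log2 fold change 0.48, edgeR adjusted p = 0.127).

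Anxa7, or synexin, is a membrane-fusing member that binds the calcium sensor sorcin. It was at 70.7 and 73.2 CPM in sham rats of day 1 and at 93.8, 116.9, 106.9 and 112.2 CPM in TBI rats. The sham rats lay close together and below every TBI rat. The rise was 1.49-fold (log2 fold change 0.58, SE 0.15, edgeR adjusted p = 0.0175). Its size hardly moved without sham replicate 1 (log2 fold change 0.55, adjusted p = 0.065) or without sham replicate 2 (0.60, adjusted p = 0.0972), but the call was lost both times in edgeR. At day 14, sham rats held 62.0, 68.4, 74.0 and 54.2 CPM and TBI rats 66.8, 56.4, 74.8 and 61.1 CPM. The groups overlapped throughout, with a log2 fold change of 0.00 and a 95% interval from -0.26 to 0.27 (adjusted p close to 1 in edgeR). The GRCr8 gene table lists 8 pseudogenes named for Anxa2 and 4 for Anxa7, and how reads that match several places were counted is not given in the sources used here.

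Anxa6 and Anxa11 were not called at either day. Anxa6, which carries a duplicated core and works on endosomes, was at 339.0 and 427.4 CPM in sham rats of day 1 and at 222.6, 179.7, 382.5 and 268.5 CPM in TBI rats. TBI replicate 3 lay between the 2 sham rats and the other TBI rats were below both. The log2 fold change was -0.54 (95% interval -1.05 to -0.04, edgeR adjusted p = 0.12). It was -0.70 without sham replicate 1 and -0.36 without sham replicate 2, not called either time. Without TBI replicate 3, it was -0.78 and called (edgeR adjusted p = 0.0168). At day 14, Anxa6 ranged from 206.3 to 275.8 CPM in sham rats and from 210.5 to 304.2 CPM in TBI rats, and the difference did not pass the test (log2 fold change 0.09, edgeR adjusted p = 0.937).

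Anxa11 encodes a member with a long N-terminal tail that tethers RNA granules to lysosomes and is mutated in some amyotrophic lateral sclerosis. Its level was 277.7 and 309.3 CPM in sham rats of day 1 and 125.1, 232.8, 259.7 and 255.7 CPM in TBI rats. All TBI rats were below both sham rats, with replicate 1 far below the others. The difference did not pass the test (log2 fold change -0.43, 95% interval -0.91 to 0.05, edgeR adjusted p = 0.194), nor without sham replicate 1 (-0.50) or replicate 2 (-0.35). Without TBI replicate 1 the log2 fold change shrank to -0.235 (edgeR adjusted p = 0.257). TBI replicate 1 also had the lowest summed neuronal markers (4136 CPM, with 7675 CPM as the highest of the group) and the highest endothelial sum (927.4 CPM). Its oligodendrocyte (15510 CPM), astrocyte (17320 CPM) and microglia and macrophage sums (1404 CPM) were the highest of the group too. Its monocyte and neutrophil sum was the lowest (232.5 CPM). The part of cell makeup in the low Anxa11 of this rat was not tested. At day 14, sham rats ranged from 222.5 to 278.3 CPM and TBI rats from 236.8 to 308.7 CPM (log2 fold change 0.09, edgeR adjusted p = 0.934).

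**Figure D2:**
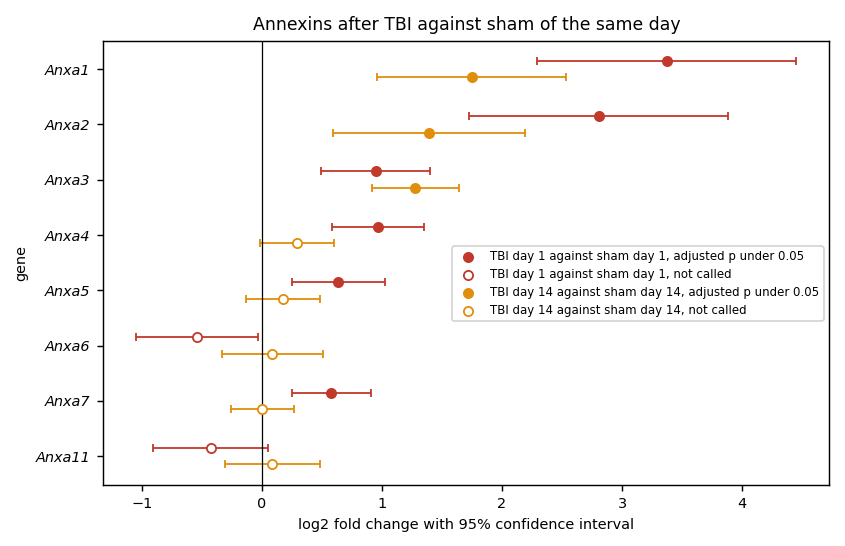
Log2 fold change of each annexin after TBI against sham of the same day (horizontal axis), with the 95% confidence interval as a line. Filled points have an edgeR adjusted p under 0.05, at day 1 for 6 members and at day 14 for 3, and the interval of Anxa7 at day 14 is centred on 0.

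Set against the 4 sham rats of day 14, none of which was rich in choroid plexus markers, the TBI rats of day 1 gave the same 6 annexins as higher and none as lower (25% of all tested genes were called higher and 21% lower). In this comparison TBI and time since surgery cannot be told apart. The log2 fold changes were 3.23 for Anxa1, 3.57 for Anxa2, 1.17 for Anxa3, 1.91 for Anxa4, 1.31 for Anxa5 and 0.73 for Anxa7, with edgeR adjusted p between 2.54e-07 for Anxa4 and 0.000258 for Anxa7. All 6 stayed called in 24 of 24 alternatives. Anxa6 (0.14, adjusted p = 0.584) and Anxa11 (-0.21, adjusted p = 0.386) did not pass the edgeR test.

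From day 1 to day 14 after TBI, 5 members fell (Anxa1, Anxa2, Anxa4, Anxa5 and Anxa7) and none was called higher, where 21.9% of all tested genes were called lower and 17.6% higher. Besides Anxa1 and Anxa2, Anxa4 was 3.07-fold lower (log2 fold change -1.62, edgeR adjusted p = 3.42e-06), Anxa5 2.19-fold lower (log2 fold change -1.13, adjusted p = 4.57e-05) and Anxa7 1.66-fold lower (log2 fold change -0.73, adjusted p = 0.000387). Between the sham groups, Anxa4 and Anxa5 were higher at day 1 and no member was called lower, beside 11.3% of all tested genes higher and 7.88% lower. Anxa6 missed the threshold there (log2 fold change 0.68, edgeR adjusted p = 0.0551), although both sham rats of day 1 were above all 4 of day 14. This sham comparison shares its day 1 rats with the test of TBI at day 1. Without sham day 1 replicate 1 only Anxa4 was called, and without replicate 2 Anxa2 was called too (log2 fold change 1.52, edgeR adjusted p = 0.0164).

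Whether the TBI effect itself differed between day 1 and day 14 was tested as an interaction. None of the 8 members was called with edgeR, limma-voom or DESeq2, where 2.24% of all tested genes had a higher and 1.44% a lower effect at day 1. At an unadjusted p below 0.05 in edgeR there were 4 members: Anxa1 (difference of log2 fold changes 1.63, adjusted p = 0.14), Anxa2 (1.41, adjusted p = 0.203), Anxa4 (0.68, adjusted p = 0.11) and Anxa7 (0.58, adjusted p = 0.119). For Anxa3 the difference was -0.33 (edgeR adjusted p = 0.523). Without sham day 1 replicate 1, Anxa1 (2.78, adjusted p = 0.0276) and Anxa2 (3.06, adjusted p = 0.00382) were called in edgeR. The loss at day 14 of the day 1 calls for Anxa4, Anxa5 and Anxa7 is thus not by itself a tested difference between the days.

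**Figure D3:**
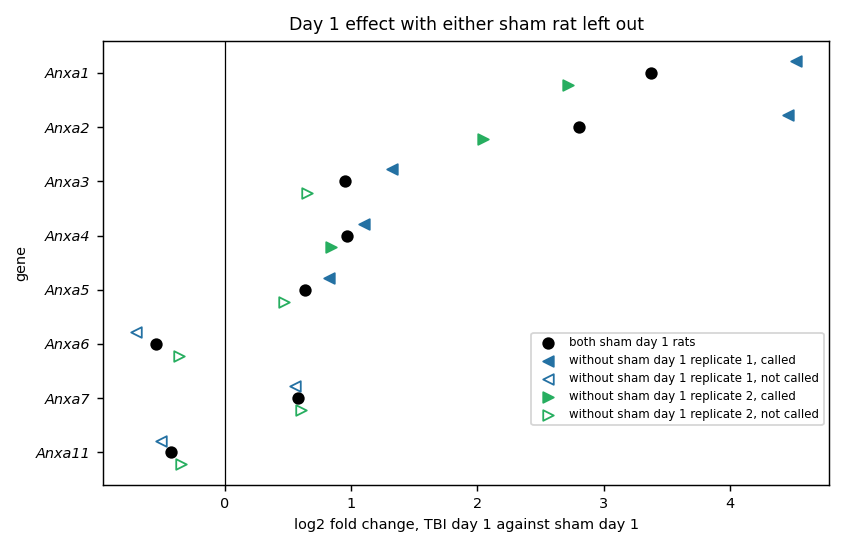
Log2 fold change of each annexin at day 1, TBI against sham (horizontal axis), with both sham rats (black circles, called or not) and with sham replicate 1 or replicate 2 left out (triangles, filled where the edgeR adjusted p was under 0.05 and open where not). Both triangles are filled for Anxa1, Anxa2 and Anxa4, and Anxa2 moves the most, between 2.05 and 4.46.

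The genes of known annexin partners were taken as a list of 12, of which 11 were in the table and tested (Fpr2 is not analysed here). At day 1, 6 rose after TBI (S100a10, S100a11, S100a6, S100a4, Ahnak and Plg), none was called lower and 5 did not pass the test, where 11.2% of all tested genes were called higher. The list's median log2 fold change was 1.46, beside -0.02 for all tested genes. At day 14, 1 of the 11 rose (S100a4), where 4.07% of all tested genes were called higher, and the list's median was 0.09, beside -0.03 for all tested genes. The day 1 count was 7 without sham replicate 1, with Pdcd6 and Plat added and Plg not called. It was 4 without sham replicate 2, where Ahnak and Plg were not called. Without either of these rats the day 14 count was 2, with S100a6 added to S100a4.

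S100a10 (p11), the light chain of the Anxa2 complex, was at 20.2 ± 2.33 CPM in sham rats of day 1 (SD, n = 2) and 258.5 ± 35.6 CPM in TBI rats (SD, n = 4). The ranges did not overlap, at 18.6 to 21.9 CPM and 232.3 to 310.9 CPM. It rose 12.8-fold (log2 fold change 3.68, SE 0.22, edgeR adjusted p = 3.41e-07). At day 14, when the Anxa2 rise was at the threshold, S100a10 had a log2 fold change of 0.14 (95% interval -0.19 to 0.46, edgeR adjusted p = 0.84). S100a11, a ligand of the Anxa1 tail, rose 17.3-fold from a low level (0.48 ± 0.16 to 8.35 ± 3.25 CPM, edgeR adjusted p = 9.83e-05). S100a6, which binds Anxa11, rose 6.99-fold (7.10 ± 4.89 to 49.4 ± 14.6 CPM, edgeR adjusted p = 0.000338), and its day 14 difference did not pass the test (log2 fold change 1.06, edgeR adjusted p = 0.0915). S100a4, an Anxa2 ligand, rose 15.1-fold at day 1 (6.52 ± 2.97 to 98.3 ± 11.3 CPM, edgeR adjusted p = 5.63e-06). It was the partner still higher at day 14, at 5.86-fold (6.91 ± 1.48 to 40.6 ± 10.8 CPM, edgeR adjusted p = 1.38e-05).

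Among the other partners, Ahnak, a very large scaffold that binds the Anxa2 and S100a10 complex, rose 2.67-fold at day 1 (edgeR adjusted p = 0.00441). Plg, the plasminogen gene, rose 5.85-fold from low counts, with 0.50 to 5.08 CPM in the TBI rats (edgeR adjusted p = 0.0341). Plat, the tissue plasminogen activator, had a log2 fold change of 0.88 that did not pass the test (edgeR adjusted p = 0.0552). Fpr1, a receptor of Anxa1, had at most 3 counts in each sham rat of day 1, and its difference did not pass the test (edgeR adjusted p = 0.119). Pdcd6, a calcium sensor that binds Anxa7 and Anxa11, was at 0.39 (adjusted p = 0.086), Sri, which encodes sorcin, at -0.38 (adjusted p = 0.1) and the plasminogen receptor Plgrkt at 0.03 (adjusted p = 0.946), all as log2 fold changes in edgeR at day 1.

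**Figure D4:**
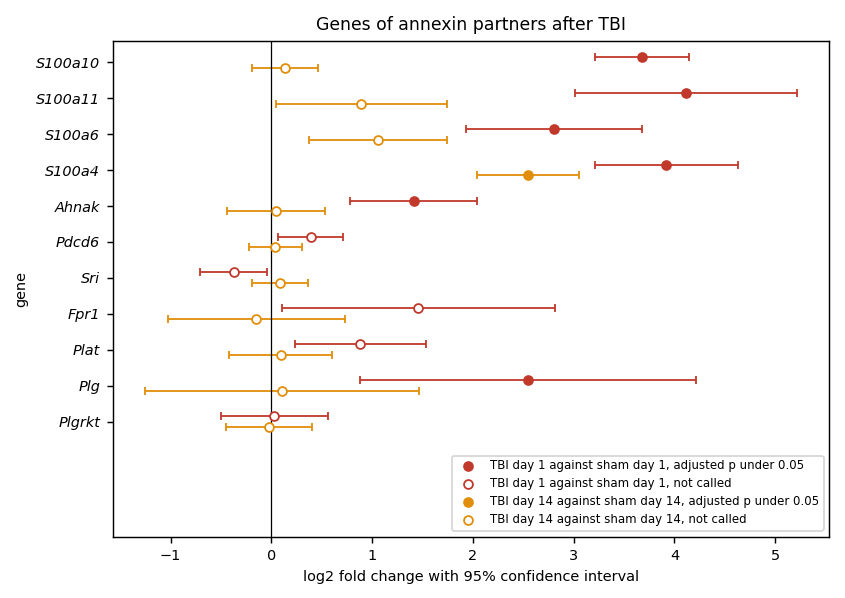
Log2 fold change with its 95% confidence interval (horizontal axis) for the 11 tested genes of annexin partners, TBI against sham, at day 1 and day 14. At day 1 the points for S100a10, S100a11, S100a6, S100a4, Ahnak and Plg are filled (edgeR adjusted p under 0.05), and at day 14 S100a4 is the filled one.

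Markers of several cell types also differed between TBI and sham, some higher and some lower, and their part in these results was not tested. Of 6 tested markers of monocytes and neutrophils (from a list of 8), 5 rose at day 1 and 2 at day 14. Their summed level was 26.7 to 47.3 CPM in sham and 232.5 to 442.0 CPM in TBI rats at day 1, and 25.1 to 30.4 CPM and 47.0 to 156.8 CPM at day 14. Of 11 markers of microglia and macrophages, 5 rose and 2 fell at day 1 and 10 rose at day 14, with sums of 573.3 to 973.8 CPM in sham and 1029 to 1404 CPM in TBI rats at day 1, and 670.8 to 891.0 CPM and 1551 to 2888 CPM at day 14. Within the TBI rats of day 14, this sum was 2155, 1863, 1551 and 2888 CPM in replicates 1 to 4. Replicate 4 had the highest and replicate 3 the lowest sum, and the same held for Anxa1, Anxa3 and Anxa5. Anxa2 and Anxa4 were also highest in replicate 4 but lowest in replicate 2. Anxa11 went the other way, highest in replicate 3 (308.7 CPM) and lowest in replicate 4 (236.8 CPM). Anxa7 was highest in replicate 3 and Anxa6 in replicate 1. The summed astrocyte markers were highest in replicate 4 (11410 CPM) and lowest in replicate 3 (7555 CPM), a library rich in choroid plexus markers. Within the TBI rats of day 1, replicate 1 had the highest microglia and macrophage sum (1404 CPM). Anxa3 was also highest in that rat, but Anxa1, Anxa2, Anxa4, Anxa7 and Anxa11 were lowest there, and Anxa5 and Anxa6 were neither.

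Of 8 astrocyte markers, 1 rose and 1 fell at day 1 and 1 rose at day 14. Their summed level at day 1 was 4583 to 7136 CPM in sham and 11160 to 17320 CPM in TBI rats. At day 14 it was 4319 to 5437 CPM in sham and 7555 to 11410 CPM in TBI rats. Such a sum follows the most abundant markers of a list and need not reflect the list as a whole. Of 8 endothelial markers, 2 rose at day 1 (257.6 to 439.5 CPM in sham and 559.7 to 927.4 CPM in TBI rats) and none was called at day 14. The 6 tested fibroblast markers gave no call at either day, and their sum was 992.1 CPM in one sham rat of day 1 and 61.7 CPM in the other. Of 9 neuronal markers 3 fell at day 1, and of 6 oligodendrocyte markers 2 fell, with none called at day 14. Of the 11 tested choroid plexus markers, 10 were called lower after TBI at day 1, where 1 of the 2 sham rats held nearly all of their signal, and 1 was called higher at day 14.

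The genes whose pattern over the 14 libraries was nearest to a member were found by the root mean square difference of centred log2 CPM. For Anxa1, whose own SD over the libraries was 1.47 on that scale, they were Vim, the intermediate filament gene of reactive astrocytes and mesenchymal cells (difference 0.26), and Ifitm3, an interferon-induced membrane protein (0.34). For Anxa2 (SD 1.53), they were Emp3, a membrane glycoprotein (0.24), and Pdpn, or podoplanin (0.37). For Anxa4 (SD 0.79), they were Dynlt1, a dynein light chain (0.15), and Rsu1, an integrin adhesion protein (0.15). These are descriptions over libraries that share their groups, depth and cell makeup.

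Of the other annexins in the table, Anxa8 was tested and not called between TBI and sham of the same day with edgeR (log2 fold change 1.39, adjusted p = 0.362 at day 1, and -0.16, adjusted p = 0.982 at day 14). Its counts were 0, 49, 11 and 69 in TBI and 14 and 7 in sham rats at day 1, a spread within TBI that covers the sham values. At day 14 they were 1, 2, 6 and 9 in TBI and 5, 3, 6 and 5 in sham rats. TBI rats of day 1 were called higher than sham rats of day 14 (log2 fold change 2.32, edgeR adjusted p = 0.042), and TBI rats of day 14 lower than those of day 1 (log2 fold change -2.48, edgeR adjusted p = 0.0373), although the 0 counts of TBI day 1 replicate 1 lie below both groups of day 14. Anxa10 had 1 count in all libraries together and Anxa13 at most 5 counts in any library.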

How the data were processed

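Per the labels and the study's methods, poly(A) RNA from each hippocampus was made into stranded libraries. Reads from 1 end were mapped by the authors against rn5 with STAR 2.4.2a, and they deposited raw counts per gene from featureCounts 1.5.0 with UCSC genes. The strand and multimapping settings are not given in the sources used here. The deposited peak lists of the same study were not used. Replicate libraries differed by more than sampling noise (chi-square per degree of freedom 12.8 to 165.2), and each is 1 rat.

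Counts were fitted with edgeR 4.0.16 (R 4.3.3; TMM factors, filterByExpr, quasi-likelihood F test) with 1 mean per group over 14 samples. P-values were adjusted by Benjamini-Hochberg over the 12875 tested genes, and a gene was called at an adjusted p below 0.05. CPM values use counts of the tested genes, and log2 CPM a prior count of 2. The fit was tested on simulated data. The simulated sham rats of day 1 shared the same expected levels apart from depth, so this step cannot bear on how the real ones differ. Alternatives were limma-voom (limma 3.58.1), DESeq2 1.42.0, its size factors, other filters, a replicate block, only the groups compared, a choroid plexus covariate and left-out rats. Depth ranged from 17183319 to 23743703 counts at day 1 and from 15065540 to 19781459 at day 14, which bears most on low genes such as Anxa1. The 8 annexins, the 11 tested partners and the 2 nearest genes for each of the 3 members with the largest log2 fold change at day 1 were named. The membrane list was given by counts, with values for the genes that passed at either day. Members and lists were chosen with earlier results of these data known. Promoters came from RefSeq GRCr8, with the window held to the 250 bases before the start, and motifs were searched on both strands in Python 3.11.15. Figures used matplotlib 3.10.9. Positions in the files' own build were not used. A planned search of protein motifs was not run.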

Additional observations from a re-analysis of the deposited data

Results flagged for a closer look

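Anxa11 in TBI day 1 replicate 1 stood apart from the other 3 rats of its group. Its level was 125.1 CPM, where the others were at 232.8, 255.7 and 259.7 CPM, and on the log2 scale the gap to the nearest rat was 0.850 of the group's whole range, above Dixon's 95% critical value for 4 samples. Of 24 groups of 4 examined (8 annexins in 3 groups), this was the only such case, and chance alone gives about 1 in 20.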

How the results depend on the processing

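Single-member log2 fold changes were recomputed 1144 times in all: 1084 kept their direction and side of the threshold, 26 kept the direction but were no longer called, 13 became called and 21 changed sign, none of which was called in the reported fit. The number of members called at day 1 was 3 with only the groups compared, and 3 to 7 with single rats left out. Between the sham groups it was 1 to 3 with single rats left out, and for the difference between the days 0 to 2, and 2 with sham day 1 replicate 1 and TBI day 14 replicates 2 and 3 left out together, a setting added after seeing the data. The day 1 count of 7, without TBI day 1 replicate 3, was made up of 6 members higher and Anxa6 lower. The count at day 14 stayed at 2 to 3. With 2 sham rats at day 1, values there rest on either rat.

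Replicate numbers are shared between groups, and no pairing by number was used in the reported fit. Deviations of same-numbered rats had correlations of -0.35 to 0.24 (18 pairs, median 0.03, 5 above 0.1). Those of rats with other numbers were -0.43 to 0.35 (54 pairs, median -0.03, 17 above 0.1). Deviations were taken from the means of small groups, so the pairs are not independent and cannot decide whether the numbers pair the rats. With a replicate block, 6 members were called at day 1 and 2 at day 14, where Anxa2 was at 1.37 (adjusted p = 0.0816, edgeR), and 3 between the sham groups, Anxa6 among them at 0.81 (adjusted p = 0.033).

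The sign changes were as follows. Anxa7 at day 14 was -0.001 with DESeq2, -0.002 with its size factors, -0.022 with the choroid plexus covariate and -0.073 to 0.074 with single rats left out. With single rats left out, Anxa6 ran from -0.013 to 0.166 at day 14 and from -0.094 to 0.287 for TBI day 1 against sham day 14. Between the TBI groups, Anxa6 was 0.04 with the covariate, 0.10 without TBI day 14 replicates 2 and 3 with or without the sham rat, and -0.201 to 0.180 with single rats left out, and Anxa3 was then -0.012 to 0.208. Between the sham groups, Anxa2 was -0.88 and Anxa3 -0.15 with the 3 rats left out, and with single rats left out Anxa2 ran from -0.887 to 1.523, Anxa3 from -0.158 to 0.513 and Anxa1 from -1.293 to 0.512. The difference between the days for Anxa3 then ran from -0.628 to 0.043. The cause was not tested for the sign changes of Anxa7 by scaling or covariate.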

Other observations

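A list of 14 genes for phosphatidylserine recognition and membrane repair, the processes in which annexins take part, had 11 tested members, and Timd4, Stab1 and Chmp4b are not analysed here. At day 1, 3 rose after TBI, none was called lower and 8 did not pass the test (median log2 fold change 0.17, beside -0.02 for all tested genes, of which 11.2% were called higher). Axl, a receptor tyrosine kinase for phosphatidylserine bridging ligands, rose from 39.7 ± 20.5 to 92.7 ± 7.84 CPM (log2 fold change 1.23, edgeR adjusted p = 0.0103). Ano6, a calcium-activated lipid scramblase, rose from 46.4 ± 7.34 to 98.8 ± 20.2 CPM (log2 fold change 1.09, edgeR adjusted p = 0.00112). Dysf, which encodes the membrane repair protein dysferlin, rose from 2.25 ± 0.78 to 6.55 ± 1.40 CPM (log2 fold change 1.54, edgeR adjusted p = 0.00679). Errors are SD, with n = 2 sham and n = 4 TBI rats. Without sham day 1 replicate 2, 1 of the 11 was called higher (Ano6) and 2 lower (Gas6 and Mfge8), and without replicate 1 there were 4 higher and none lower.

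At day 14, 2 of the 11 rose and 9 did not pass the test (median -0.00, beside -0.03 for all tested genes, of which 4.07% were called higher). Axl was at 40.4 ± 5.06 CPM in sham and 100.7 ± 33.1 CPM in TBI rats (SD, n = 4 each, log2 fold change 1.32, edgeR adjusted p = 0.00258). Pros1, which encodes protein S, a phosphatidylserine-binding ligand of Tyro3 and Mertk, was at 12.1 ± 1.64 and 22.9 ± 4.49 CPM (log2 fold change 0.92, edgeR adjusted p = 0.0246). At day 1, Pros1 had a log2 fold change of 0.81 that did not pass the edgeR test (adjusted p = 0.0518). Neither Tyro3 nor Mertk, nor Gas6, the ligand of Axl, was called at day 14.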
